A study of Bos taurus with 88 samples.

Results

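The comparison described here follows 8 Holstein (H) dairy calves from birth to 168 h of age and asks which genes of their whole blood had not returned to the birth level by then. The 16 samples, 8 at 0 h and 8 at 168 h, were chosen by breed and age from the labels of 88 samples, and the samples of each calf were joined by its tag number. H calves were parted from the dam before they could suckle, were bled, and were then given colostrum at 5% of body weight by hand. They were penned singly at first, and were on milk replacer and concentrate in a group pen before the sample at 168 h, so that age and diet cannot be told apart. The beef calves used for comparison were 7 calves of Charolais × Limousin dams (CL) and 7 of Limousin × Friesian dams (LF), by Aberdeen Angus or Charolais sires, and they stayed with their dams and suckled freely. They were born on another farm, so that breed, farm and feeding cannot be told apart between H and beef calves. No sex is given for the calves in the labels.

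Calves are born with almost no circulating antibody, because the bovine placenta does not pass immunoglobulin to the fetus. Colostrum supplies it, together with maternal leukocytes, cytokines and hormones, while the gut is still permeable to large proteins. In the same days the fetal blood pattern begins to give way to the postnatal one. The slower replacement of fetal haemoglobin and red cells is only beginning, the cortisol peak of birth passes, and the proportions of neutrophils and lymphocytes shift. Whole blood RNA holds the transcripts of all of these cells. In such bulk samples fewer cells of a type and less RNA per cell cannot be told apart.

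The counts are listed by Ensembl identifier, and the tables used here pair 0 of the 24616 identifiers with a gene symbol. The gene lists that accompany the study give symbols without identifiers and could not be joined to the counts. No gene is therefore assigned a function here, a cell type marker list could not be applied, and the label of whole blood was not checked against marker genes. The genes are described by number, level, size of change and behaviour in each calf, and 4 are named by identifier, namely the 2 largest rises and the 2 largest falls among the genes that moved the same way in all 8 calves and had a mean of at least 1 CPM at the higher age. CPM is the usual scaling of a gene's count to a library of fixed size, here with library sizes adjusted by TMM (trimmed mean of M values).

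Each sample at 0 h held between 13410404 and 39304404 reads on genes, and each at 168 h between 16014651 and 37775818. A level of 3 counts, taken as the limit that a count of 0 allows, corresponds to 0.0763 to 0.224 CPM of the unscaled library at 0 h and to 0.0794 to 0.187 at 168 h (counting error only). Some libraries stood apart. In calf 6 the share of multimapping reads, which are not counted on genes, was 41.0% at 0 h, 49.1% at 48 h and 45.7% at 72 h, whereas the highest value in the other 7 calves was 19.4% at 0 h. At 168 h the share ran from 7.12% to 20.6% over all 8 calves. The 72 h sample of calf 5 correlated best with calf 8 (r = 0.264) and hardly with the other ages of calf 5 (r = 0.035, both on deviations from the mean of the age), so values at 72 h are given with and without it. Every 168 h sample matched the other ages of its own calf best (8 of 8), including calves 1 and 3, whose RNA numbers at 168 h lie outside the run of that calf's other samples. In 2 of the 16 samples, calf 5 at 0 h and calf 7 at 168 h, the RNA label ends in R. The labels do not say what this R, or the L number that each carries, means. Alternatives left out calves 1 and 3 together, and calves 5 and 7 together.

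Of 12647 genes tested, 2818 (22.3%) were differentially expressed genes (DEG) at 168 h compared with 0 h, defined by an adjusted p under 0.05 in edgeR's quasi-likelihood test with calf as a block and a fold change of at least 1.5. There were 1099 genes higher at 168 h (8.69% of those tested) and 1719 lower (13.6%). At the other end, 6084 genes (48.1%) were held near the birth level, in that the 95% confidence interval of the log2 fold change lay wholly within a 1.5-fold change either way. The remaining 3745 genes were neither called nor bounded, and for these the data do not show whether the birth level had been regained. The median width of the interval over all genes tested was 0.54 on the log2 scale. The median log2 fold change was 0.94 over the genes that rose, -0.96 over those that fell and -0.003 over all genes.

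The split between rises and falls depended on the scaling. With TMM factors 39% of the DEG were higher at 168 h. With library size alone, 70.96% were higher (2385 up and 976 down), the median of all genes moved to 0.23 on the log2 scale, and the genes bounded near the birth level numbered 3868. No DEG was called in the opposite direction with library size alone, and 1098 of the rises and 974 of the falls were called under both. The direction of the DEG not called there was not compared. Directions below are therefore relative to a TMM scale. The calls used TMM factors from the filtered samples of the fit. CPM levels, and the directions and separations by calf, used TMM factors from all 88 samples without a filter. On that second scale 52.2% to 55.7% of the genes tested were higher at 168 h in each calf, whereas the median of the fit was -0.003. The effect of this on the counts of rises and falls by calf was not tested.

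**Figure D1:**
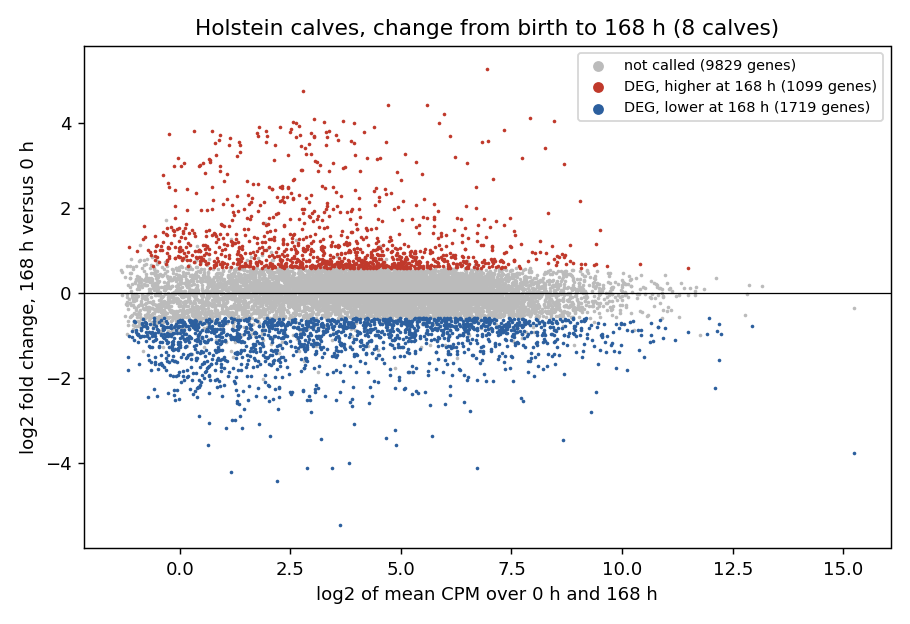
Log2 fold change between 0 h and 168 h against the log2 mean CPM of both ages, 1 point for each of the 12647 genes tested in 8 Holstein calves. Red points are the 1099 DEG higher at 168 h, blue points the 1719 lower, and grey points genes not called; the largest rises spread over a wide range of levels, and the blue point at the far right is the most abundant gene at birth.

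The largest rises outnumbered the largest falls and were more often free of overlap between the ages. Among DEG with at least a 2-fold change, 496 were higher and 786 lower at 168 h, whereas among those with at least an 8-fold change, 87 were higher and 21 lower. All 8 samples at 168 h lay above all 8 samples at 0 h for 471 of the 1099 rises, where 4.93% of all genes tested showed this. The same separation in the downward direction held for 282 of the 1719 falls, where 2.75% of all genes showed it. For changes of at least 4-fold the groups were separate for 155 rises (87.6%) and 50 falls (38.2%), and for changes of at least 8-fold for 84 rises (96.6%) and 8 falls (38.1%). These separations use the same contrast as the calls and are given as a description. The median standard error (SE) of the log2 fold change was 0.24 for rises of at least 4-fold and 0.38 for falls of that size. Without calf 6, the number of falls with separate groups was 450 in place of 282.

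Taken calf by calf, 887 of the rises were higher at 168 h in all 8 calves, as were 17.1% of all genes tested. Of the falls, 1089 were lower in all 8 calves, as were 12.2% of all genes. When each calf was left out in turn and the DEG were called from the other 7, between 90.0% and 98.9% of the genes called up were also higher at 168 h in the calf that had been left out. The share of all genes that were higher in that calf was 52.2% to 55.7%. For the genes called down, 83.7% to 97.7% were lower in the calf left out, with the lowest value in calf 5 and the highest in calf 7. Of all genes, 44.3% to 47.8% were lower in that calf. Across genes, the change of a calf correlated with the mean change of the other 7 with Pearson's r between 0.63 in calf 6 and 0.88 in calf 7, a description over genes, which are not independent replicates. In each of the 8 calves the DEG called without it went the same way far more often than all genes did.

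**Figure D2:**
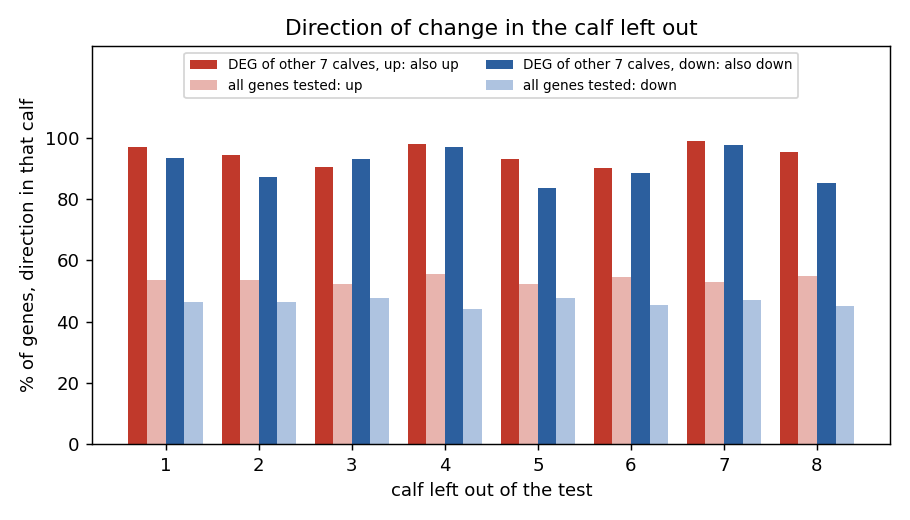
For each of the 8 Holstein calves, the percentage of genes that moved in the named direction in that calf when it had been left out of the test. Dark bars are DEG called from the other 7 calves (red up, blue down) and pale bars are all genes tested; dark bars lie between 83.7% and 98.9% and pale bars near the middle of the scale.

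The falls included more of the low and of the very abundant genes than the middle of the range. Of 707 genes with a mean of up to 1 CPM, 160 (22.6%) fell and 58 (8.2%) rose. Of 3524 genes between 1 and 10 CPM, 644 (18.3%) fell and 471 (13.4%) rose. Between 10 and 100 CPM, 570 (8.96%) of 6364 genes fell and 470 (7.39%) rose. Above 100 CPM, 345 (16.8%) of 2052 genes fell and 100 (4.87%) rose.

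The share of the library held by these genes followed the same division. The 1099 genes that rose took 1.34% to 3.34% of the reads counted on genes at 0 h (median 2.73%) and 4.43% to 7.67% at 168 h (median 6.06%). Their median share was 4.27% at 48 h and 5.27% at 72 h. The 1719 genes that fell took 20.7% to 40.8% at 0 h (median 26.02%), with calf 6 highest, and 10.4% to 17.5% at 168 h (median 13.3%). Their median share was 19.6% at 48 h and 17.5% at 72 h. The shares depend on which genes are called: with library size alone the falls took a median of 15.02% at 0 h and 6.49% at 168 h and the rises 8.05% and 14.7%, which turned the order of the sets at 168 h. Without the 10 most abundant genes the falls took 17.9% at 0 h. They took 18.4% with no filter, 20.2% with no block and 21.4% with DESeq2 and calf in the model. In these fits the most abundant gene at birth was not called. The age groups were separate for the rises and for the falls, a separation that the choice of the genes sets. Since shares within a library sum to 100%, a larger share of one gene lowers those of others.

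**Figure D3:**
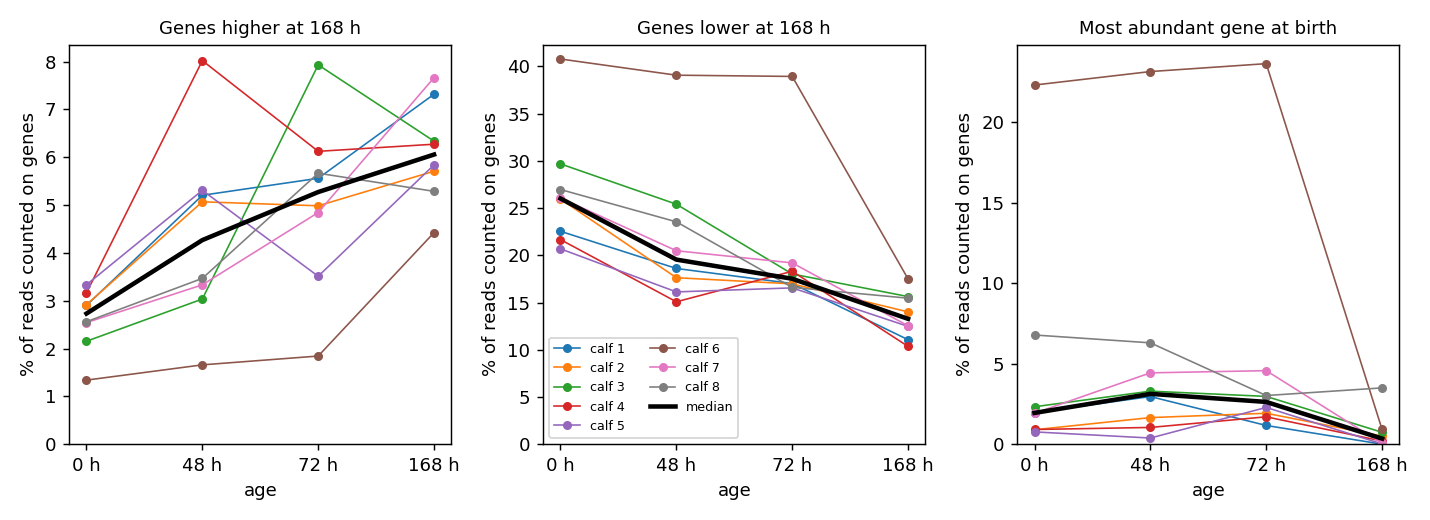
Percentage of the reads counted on genes that fell on the DEG higher at 168 h (left), on the DEG lower at 168 h (middle) and on the single most abundant gene at birth (right), by age in each of the 8 Holstein calves. Coloured lines are calves and the black line is the median; at 0, 48 and 72 h calf 6 lies far from the others in the middle and right panels, and at 168 h it has come close to them.

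A single gene, the most abundant at birth by its mean share over the 8 calves, was followed because of its weight in the library. It was chosen after its values were seen. The gene took 0.766% to 22.3% of the reads counted on genes at 0 h, with a median of 1.94% and calf 6 highest. Its mean of 4.74% rests largely on calf 6. In calf 5, where it took 0.766% and the 10 most abundant genes together 8.14%, it was not the most abundant gene. At 48 h and 72 h the medians were 3.13% and 2.63%, and the log2 fold changes against 0 h were 0.33 (95% interval -0.15 to 0.81) and 0.55 (95% interval -0.22 to 1.32). At 168 h the share ran from 0.0038% to 3.50% with a median of 0.351%, and calf 8 was highest. The mean change in the share was -3.99 percentage points, and -1.51 without calf 6. The log2 fold change was -3.77 (SE 1.05). The gene was chosen by its level at birth, which both values use, so they are a description and no test of the fall is given. It counts among the falls of the main fit. Of the alternatives that tested it, 15 gave the same outcome and 5 did not call it. The share was below that of birth in 2 of 8 calves at 48 h, in 2 of 8 at 72 h and in 8 of 8 at 168 h. In calf 6 this gene and the multimapping share were high at the same ages, and the part of either in the other was not tested.

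The largest rise was that of ENSBTAG00000014628. At 0 h its level ran from 2.85 to 10.6 CPM with a median of 5.53 CPM. At 168 h it ran from 97.7 to 391.6 CPM with a median of 254 CPM, so that the lowest calf at 168 h was above the highest at birth. The log2 fold change was 5.27 (SE 0.29, edgeR adjusted p = 3.6e-07). The calves reached this level at different ages. At 48 h the level ran from 6.22 to 645 CPM (median 40.4), with calf 4 far above the others, and at 72 h from 4.88 to 524 CPM (median 250), or from 100 CPM upward without calf 5.

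The next largest rise, that of ENSBTAG00000011467, started from a level close to the limit of these libraries. At 0 h it ran from 0.078 to 1.04 CPM (median 0.325), with 2 to 19 counts in each library. At 168 h it ran from 3.72 to 35.3 CPM (median 10.4), and again the groups did not overlap. The log2 fold change was 4.76 (SE 0.59, edgeR adjusted p = 0.00018). The median was already 10.9 CPM at 48 h and 14.4 CPM at 72 h, so that this gene had come to its 168 h range by 48 h in most calves. The log2 fold changes against birth were 4.84 (SE 0.46) at 48 h and 5.10 (SE 0.82) at 72 h, or 5.81 (SE 0.48) at 72 h without calf 5.

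The largest fall was that of ENSBTAG00000039283, and its size rested on 3 calves. At 0 h calves 4, 3 and 7 stood at 104.2, 54.1 and 31.1 CPM, while the other 5 calves were between 0.389 and 2.20 CPM. At 168 h the level ran from 0.045 to 1.27 CPM with a median of 0.173 CPM, at 1 to 48 counts a library, and calf 7 was the highest. All 8 calves fell, which the rule for naming a gene required. The groups overlapped, since calves 5 and 7 at 168 h (0.403 and 1.27 CPM) were above calf 1 at birth (0.389 CPM). The log2 fold change was -5.46 (SE 0.95, edgeR adjusted p = 0.0013), and -4.29 without calf 4. With DESeq2 and calf in the model it was -4.37, smaller than the -5.06 of the other named fall, ENSBTAG00000021161. With DESeq2 and no block the values were -6.32 and -3.34. Without calf 7, without calves 5 and 7, or with at least 10 counts asked of every sample, the gene did not pass the filter on low counts and was not tested. The median passed through 0.593 CPM at 48 h and 0.331 CPM at 72 h.

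The other large fall, that of ENSBTAG00000021161, was already in place at 48 h. At 0 h the level ran from 3.27 to 14.2 CPM with a median of 7.00 CPM. The median dropped to 0.300 CPM at 48 h and stood at 0.277 CPM at 72 h and 0.271 CPM at 168 h. At 168 h calves 1 and 4 had 0 counts and calf 6 stood apart at 4.82 CPM, above the lowest calf at birth, so that the groups overlapped. The log2 fold change was -4.43 (SE 0.64, edgeR adjusted p = 0.00043), and -5.08 without calf 6.

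**Figure D4:**
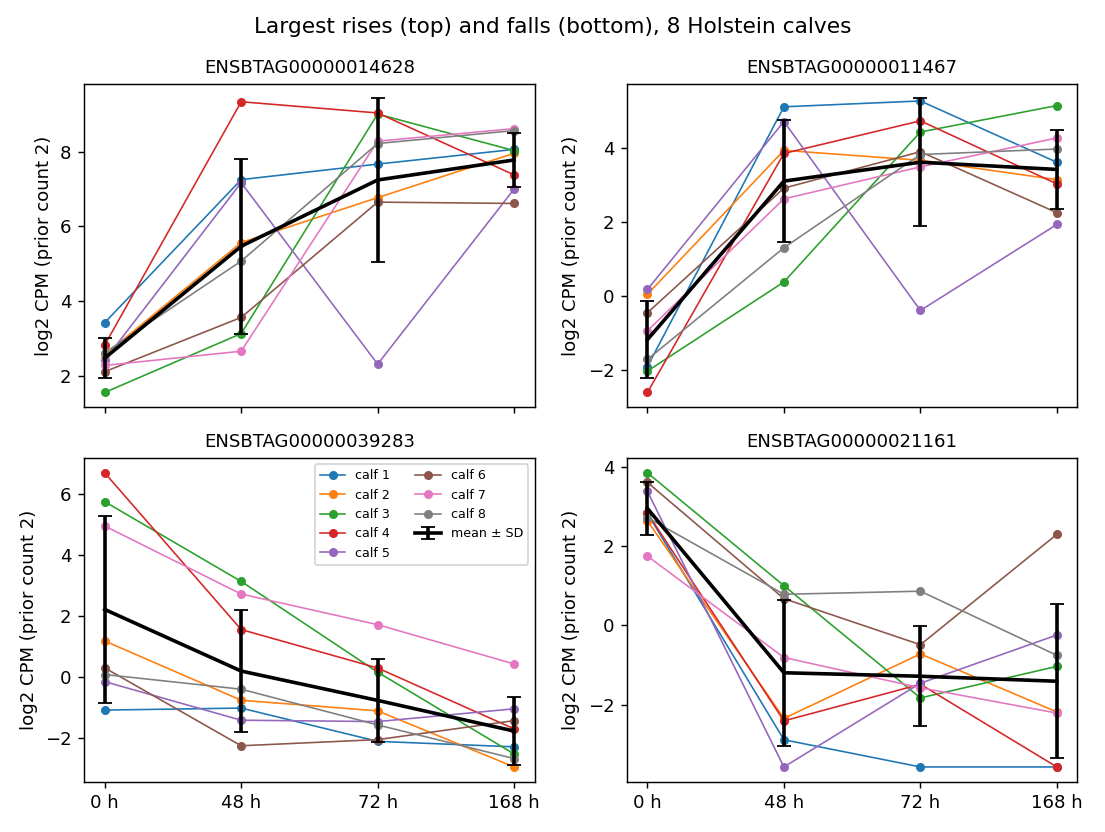
Log2 CPM (prior count 2) of the 2 named rises (top) and the 2 named falls (bottom) at 0, 48, 72 and 168 h in the 8 Holstein calves; coloured lines are calves, and black lines with bars are means ± SD. ENSBTAG00000011467 and ENSBTAG00000021161 are near their 168 h level by 48 h, ENSBTAG00000039283 is high at birth in 3 calves only, and calf 5 dips at 72 h in both rises.

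The DEG were already displaced from birth at 48 h and 72 h by their medians. For the 1037 rises that could be tested at each age, the median log2 fold change against birth was 0.50 at 48 h, 0.63 at 72 h and 0.90 at 168 h. Without calf 5 the value at 72 h was 0.68. For the 1682 falls the medians were -0.43, -0.62 and -0.96, and -0.66 at 72 h without calf 5. These comparisons share the samples taken at birth, and the genes were chosen by their change at 168 h, which raises the size at 168 h over that at the other ages, so no order is read from the medians. The change from 48 h to 72 h uses no sample of the comparison of 168 h with 0 h. There, 0 of 12479 genes were called by edgeR, with 936 at an unadjusted p under 0.05, and the median log2 change was 0.11 over the rises, -0.16 over the falls and -0.007 over all genes. Without calf 5, 41 genes (0.329%) were called up and 37 (0.297%) down between 48 h and 72 h. Of the genes called without calf 5, 23 of those up were rises of the week and 24 of those down were falls of the week, and 1 gene in each direction went the other way.

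Calves tended to be closer to each other at 168 h than at birth, by a measure that did not pass the correction for the number of library measures tested. The standard deviation (SD) of log2 CPM between calves was lower at 168 h for 74.0% of all genes tested, with a median of 0.324 at 0 h and 0.239 at 168 h. Over the genes that rose the medians were 0.421 and 0.359, and over those that fell 0.528 and 0.446. All of these SDs include calf 6. The distance of each calf from the mean of the other 7, as the root mean square of log2 CPM differences over genes, was 0.534 ± 0.105 (SD, n = 8) at 0 h and 0.469 ± 0.036 at 168 h. This distance was lower in 6 of 8 calves (sign-flip permutation test, p = 0.047, adjusted p = 0.23 over the library measures tested). Each calf enters the distances of the others, so the 8 values are not independent and this p is only approximate. With calf 6 left out of all means the mean change was -0.037 in place of -0.064 (sign-flip permutation p = 0.17). Without calf 1, 4 or 8 the sign-flip permutation p was 0.109, 0.094 and 0.094. The share taken by the 10 most abundant genes of each library had a median of 9.47% at 0 h and 6.79% at 168 h (exact sign-flip permutation test, p = 0.47).

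Beef calves of the same ages gave a reference for how many of these genes were also away from birth under another breed and feeding. Of the H rises that could be tested, 607 of 1090 (55.7%) were also called up in CL calves, where 7.12% of all genes tested were, and 668 of 1094 (61.1%) in LF calves, where 6.66% were. They made up 66.2% of the CL list and 78.5% of the LF list. Of the H falls, 826 of 1671 (49.4%) were called down in CL calves, where 8.49% of all genes were, and 813 of 1665 (48.8%) in LF calves, where 7.87% were. These were 75.6% and 80.9% of the lists of the beef breeds. Called in both beef breeds in the same direction were 538 of 1086 rises and 626 of 1649 falls, and called in neither were 357 and 646. A total of 2 H falls were called up in CL calves. The median log2 fold change of the H rises was 0.76 in CL and 0.80 in LF calves, and that of the H falls was -0.71 in both, beside 0.94 and -0.96 in H calves. The H, CL and LF samples are separate animals. Across 12472 genes, the log2 fold change in H correlated with that in CL (r = 0.84) and in LF (r = 0.87), as a description over genes that share libraries.

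**Figure D5:**
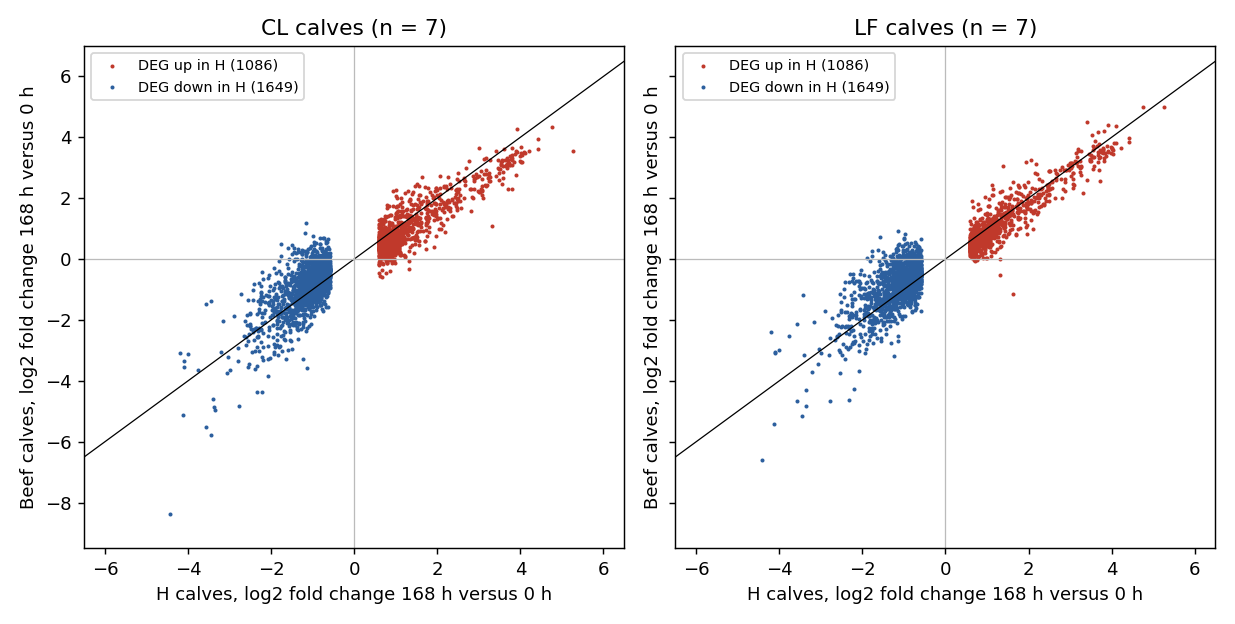
Log2 fold change from 0 h to 168 h in CL calves (left) and LF calves (right) against that in H calves, for the 1086 rises and 1649 falls of H calves tested in all 3 breeds. The black line marks equal change; most points lie on the same side of zero in beef and H calves, and the genes were chosen by their values on the H axis.

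The difference between the H change and the mean of the CL and LF changes was then tested for each gene. Of 13485 genes, 1 (0.00742%) was called by edgeR with calf as a block, while 2221 (16.5%) had an unadjusted p under 0.05. The difference was bounded within 1.5-fold for 7136 genes (52.9%), but for only 644 (22.9%) of the 2818 DEG of H calves, so for most of the DEG an equal change in beef calves was not shown either. The median difference was 0.24 over the H rises and -0.22 over the H falls, and the DEG had been chosen by their size in H calves. The gene that was called is described although it was chosen after its values were seen. Its level in H calves fell from 2.83 to 6.89 CPM (median 5.61) at 0 h to 0.900 to 3.51 CPM (median 2.53) at 168 h, and its log2 fold change was -1.19 (SE 0.22, edgeR adjusted p = 0.0015). In CL calves it rose from a median of 2.20 CPM to 4.55 CPM (log2 fold change 0.86, SE 0.23, edgeR adjusted p = 0.019), and in LF calves the medians were 4.04 and 4.39 CPM (log2 fold change 0.23, SE 0.21, edgeR adjusted p = 0.45). The difference of H from beef was -1.71 (SE 0.28, edgeR adjusted p = 0.044). More genes were called with DESeq2 and calf in the model (1.14% of those tested, with 42 differences higher and 112 lower in H) and with all 88 samples in the edgeR fit (51 genes). None were called by edgeR when calf 1, 4, 6 or 8 was left out, with 1786 to 2006 genes at an unadjusted p under 0.05.

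For the 4 named genes the beef calves gave these values. ENSBTAG00000014628 had a median of 47.8 CPM in CL and 113.9 CPM in LF calves at 168 h, against 2.93 and 1.89 CPM at birth. In CL calves 3 of 7 were at 3.65, 5.11 and 6.14 CPM at 168 h, and in calf 3 of these the level was 5.04 CPM at birth and 3.65 CPM at 168 h. The change in H calves was 1.02 larger on the log2 scale (95% interval -0.58 to 2.62, edgeR adjusted p = 0.50). ENSBTAG00000011467 reached medians of 5.00 CPM in CL and 5.29 CPM in LF calves, and the difference was 0.12 (95% interval -1.47 to 1.72, edgeR adjusted p = 0.95). Neither interval excludes a difference of more than 2-fold.

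Among the falls, ENSBTAG00000039283 was at most 1.53 CPM in CL and 2.57 CPM in LF calves at birth, and none of these beef calves stood where H calves 3, 4 and 7 did. The difference in change was -3.53 (SE 0.93, edgeR adjusted p = 0.11). It was called with all 88 samples in the fit (edgeR adjusted p = 0.017) and by DESeq2 without the block (-4.71, adjusted p = 0.0044), which ignores the pairing. DESeq2 with calf in the model did not call it (-2.72, adjusted p = 0.053). Of the alternatives that tested this gene, 18 gave the same outcome as the main fit and 2 a stronger one. ENSBTAG00000021161 fell from medians of 3.41 CPM in CL and 2.48 CPM in LF calves at birth to 0 counts in 6 of 7 libraries of each breed at 168 h, while 6 of the 8 H libraries still held counts. The difference of H from beef was 2.96 (SE 0.90, edgeR adjusted p = 0.14), a value that depends on the prior count because of the libraries at 0. DESeq2 without the block, which ignores the pairing, called it (4.20, adjusted p = 0.029), and DESeq2 with calf in the model did not (3.16, adjusted p = 0.081). Of the alternatives that tested this gene, 19 gave the same outcome as the main fit and 1 a stronger one.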

How the data were processed

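Whole blood of 88 samples was sequenced as single-end mRNA libraries. Per the labels and the study's methods, the authors trimmed reads with cutadapt, aligned them to the cattle genome UMD3.1 with STAR and deposited raw counts per gene; the unstranded column was used here, and multimapping reads are not counted on genes. Breed, age and calf came from the labels. From the counts, 12647 of 24616 genes passed edgeR's default filter in the 16 H samples (5183 had no count and 6786 were low). The tests used edgeR 4.0.16 in R 4.3.3 (TMM, robust quasi-likelihood F test, Benjamini-Hochberg adjustment over all genes tested) with calf as a block, at the thresholds of adjusted p 0.05 and 1.5-fold. The numbers pair the samples because they mark the same animal. Deviations from the age mean correlated within calves (mean r = 0.395, lowest 0.239). The mean between different calves was -0.055, a value largely set by centring on the age mean, so it is no separate evidence. Single library measures were tested by exact sign-flip permutation over 8 calves, two-sided. For the distance between calves, whose values are not independent, this p is only approximate. No pair of samples within an age was a duplicate (56 pairs, lowest chi-square per degree of freedom 52.6). On simulated data for the H comparison (12647 genes, 2.5-fold) edgeR recovered 190 of 200 changed genes with 10 false calls, and for H against beef (13485 genes) 145 of 200 with 6. DESeq2 recovered 189 with 30 false calls and 156 with 19. The simulation gave all genes the same dispersion and the same spread between animals. Its changes were balanced between rises and falls, without outlying libraries, so these rates are not the error rates of the real data.

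The alternatives were DESeq2 1.42.0, RLE or no scaling factors, other filters and thresholds, all ages in the fit, no block, and calves left out. The comparison and 24 lists of 669 gene symbols were chosen with earlier results of these data known; the lists could not be applied because the files pair no identifier with a symbol. For the same reason the named genes are the 2 largest rises and 2 largest falls moving the same way in all 8 calves with at least 1 CPM mean at the higher age, without the symbol the rule also asked for. No sequence or coordinate was used.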

Additional observations from a re-analysis of the deposited data

Results flagged for a closer look

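In groups of 8 calves, the highest or lowest value was tested for a gap to its neighbour above Dixon's 95% limit. Of 59 groups tested, 27 had such a value. Many of these measures are skewed, both ends were examined, and several groups describe the same library. The count is therefore not compared with a rate by chance. Calf 6 stood apart before 168 h. Its multimapping share of all reads was 41.0% at 0 h, 49.1% at 48 h and 45.7% at 72 h. Its share of reads mapped outside annotated genes was low, at 8.69% at 48 h and 8.92% at 72 h. The DEG that fell took 40.8%, 39.1% and 38.9% of its gene reads at 0, 48 and 72 h. Its 10 most abundant genes took 38.95%, 48.8% and 51.1% at those ages. The most abundant gene at birth took 22.3%, 23.1% and 23.6%, which on TMM-scaled libraries was 383117 CPM, 506234 CPM and 589599 CPM. Its distance from the other calves was 0.855 at 48 h on the log2 CPM scale. These measures of calf 6 moved together, and their part in the results was not tested. Without calf 6 the comparison of 168 h with 0 h gave 2769 DEG.

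Calf 8 stood apart at 168 h, when the share outside genes was 19.0%, the 10 most abundant genes took 22.4% of gene reads and the most abundant gene at birth took 3.50% (40750 CPM). Among the named genes, ENSBTAG00000014628 was at 645 CPM in calf 4 at 48 h. ENSBTAG00000021161 was at 4.82 CPM in calf 6 at 168 h and at 1.73 CPM in calf 8 at 72 h. ENSBTAG00000039283 was at 3.22 CPM in calf 7 at 72 h and at 1.27 CPM in the same calf at 168 h.

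For the 1 gene called in the test of H against beef calves, the difference in log2 fold change was -1.71 (edgeR adjusted p = 0.044). Its level fell in 8 of 8 H calves, and the CL median rose.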

How the results depend on the processing

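The count of 2818 DEG was 5757 without a fold threshold and 1140 when edgeR tested against the 1.5-fold threshold, and ran from 2527 to 3015 with each calf left out. Genes bounded near the birth level numbered 3868 with library size alone and 5447 to 6242 with each calf left out. Without the replicate block the DEG numbered 2616, of which 980 rises and 1545 falls were shared, and the H against beef test called 1 gene. The test of H against beef was the least settled: the 0.00742% of genes called (1 gene) became 0.37% (51 genes) with all samples in the fit, 1.14% (42 higher and 112 lower in H) with DESeq2 and calf in the model, 0.727% (98 genes) with DESeq2 and no block, and 0% against the fold threshold, without calves 1 and 3, or without calves 5 and 7 (240, 1650 and 2282 genes at an unadjusted p under 0.05 in edgeR). It ran from 0% to 0.089% with each calf left out (12 genes without calf 5, 5 without calf 3, 3 without calf 2, and 1 without calf 7). The cause was not tested. With library size alone 1 gene was called there, a rise in place of a fall. With at least 10 counts in every sample, 3 of the 4 named genes were not tested, leaving ENSBTAG00000014628. The 72 h against 48 h count of 0 was 78 without calf 5, an alternative chosen after seeing the data, as was leaving out the 10 most abundant genes (2799 DEG). Without calves 5 and 7 there were 439 falls and 620 rises with separate groups, in fewer calves. No DEG of the H comparison was called in the opposite direction under another scaling. Removing haemoglobin genes and counting gene lists were not run, since no symbols could be assigned. Genes under 3 counts cannot be resolved at these depths.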
